A study of Mus musculus with 12 samples.

Results

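The miR-23, miR-27 and miR-24 clusters are 2 short stretches of the mouse genome, each coding for 3 microRNA hairpins that are made from a single precursor transcript. They were examined in the small RNA of plasma extracellular vesicles, the membrane-bound particles that cells release into blood. The members are 10 mature microRNA names, namely mmu-miR-23a-3p, mmu-miR-23a-5p, mmu-miR-23b-3p, mmu-miR-27a-3p, mmu-miR-27a-5p, mmu-miR-27b-3p, mmu-miR-27b-5p, mmu-miR-24-3p, mmu-miR-24-1-5p and mmu-miR-24-2-5p (without the species prefix from here on). They were taken as listed, and all were found among the 1915 mouse names of a count table of 1982 names. Both groups were male C57BL/6J mice, a common inbred strain, of an age that the sources used here do not give. In 1 group the common bile duct was tied off (bile duct ligation, BDL), a model of obstructed bile flow with liver injury. The other group had a sham operation. Blood was taken 8 days after surgery, with 6 BDL and 6 sham libraries, and the design text speaks of 6 animals per group. ExoQuick, a polymer that precipitates particles, was used on the plasma, a method that does not select vesicles by cell of origin, although a tissue label names liver.

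A microRNA hairpin is cut into a 5p and a 3p strand, of which the guide strand is loaded into an Argonaute protein and the passenger strand is mostly degraded. The guide finds its target messenger RNAs mainly through its seed, bases 2 to 8, and lowers their translation or stability. In these clusters the 3p strands are the guides. The clusters are known for roles in blood vessel growth, in muscle and fat cells, in lymphocytes and in TGF-beta signalling, a main pathway of liver fibrosis. miR-23a-3p is also widely used as a level that haemolysis leaves stable in plasma tests.

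The guide sequences show how alike the clusters are, which bears on every comparison between an a and a b name. They are from RefSeq (GRCm38.p6), 5′ to 3′, with the seed in capitals, and 9 of the 10 members matched an entry. miR-23b-3p is named only.
miR-23a-3p: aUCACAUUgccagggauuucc
miR-27a-3p: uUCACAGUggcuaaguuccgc
miR-27b-3p: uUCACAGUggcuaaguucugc
miR-24-3p: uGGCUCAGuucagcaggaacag
The passenger strands of the miR-24 hairpins are shown because only these tell the 2 hairpins apart:
miR-24-2-5p: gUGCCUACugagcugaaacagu
miR-24-1-5p: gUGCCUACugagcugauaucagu
The miR-27 guides have the same seed and differ at 1 base, C19U from miR-27a-3p to miR-27b-3p, counted from the 5′ end. No other mouse name in the table with a RefSeq sequence shares their seed. The miR-24-3p seed occurs in 4 other listed mouse names (miR-5124b, miR-6369, miR-6410 and miR-6413), and none of these had counts high enough to be tested.

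The cluster of Mir23a, Mir27a and Mir24-2 lies on the plus strand of chromosome 8, from 84208518 to 84208921 (GRCm38), a span of 404 bases. GENCODE M21 places no other gene over Mir23a and Mir27a, and an exon of the lincRNA Gm26532 over Mir24-2. The cluster of Mir23b, Mir27b and Mir24-1 lies on the plus strand of chromosome 13, from 63300484 to 63301275, a span of 792 bases. It lies within 2010111I01Rik, a protein-coding gene on the same strand, where Mir23b is intronic and Mir27b and Mir24-1 overlap annotated exons. On the opposite strand all 3 lie in an intron of Fancc. miR-24-3p is identical from both hairpins, at 84208875 to 84208896 on chromosome 8 and 63301251 to 63301272 on chromosome 13, so its counts belong to no single cluster.

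Library totals ran from 121003 to 3506914 mouse counts in BDL and from 659302 to 2684636 in sham, with BDL 4 the shallowest library. Levels are given as CPM, counts scaled to a fixed library size with trimmed-mean (TMM) factors. A count of 0 allows up to 3 counts, or 23.98 CPM in BDL 4 and 0.624 CPM in BDL 1, the deepest library. These limits cover counting error only. Mature strands are 21 to 23 bases long, so levels were not divided by length. Each sample code ends in 24 or 26, a suffix of unstated meaning, and the 3 BDL libraries with suffix 26 (BDL 2, 4 and 6) were all shallow, from 121003 to 666310 counts. The sample codes also share a first digit between pairs of libraries of the same group, also unexplained. p-values measure the spread between these libraries, each taken as 1 animal. If a shared first digit marked a shared animal, a group would hold 3 animals. The printed p-values would then count libraries of 1 animal as separate and could be too small. An exact permutation test of 3 against 3 cannot go below p = 0.1.

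Together the 10 names took from 0.635% to 3.36% of BDL counts, with a median of 1.15%, and from 0.567% to 0.945% of sham counts, with a median of 0.810%. The totals hold the identical counts of miR-486a-5p and miR-486b-5p in full for each name. Without miR-486b-5p the shares were 0.837% to 4.03% in BDL and 0.947% to 1.51% in sham. miR-24-3p supplied 56.0% to 73.0% of these member counts in BDL and 47.0% to 54.0% in sham. It was the most abundant member in every library. In BDL the order of mean levels after it was miR-27a-3p (1973 ± 1021 CPM) and miR-23a-3p (1894 ± 1532 CPM), then miR-27b-3p (595 ± 260 CPM) and miR-24-2-5p (591 ± 279 CPM; SD, n = 6 each). In sham the order was miR-27a-3p (1737 ± 459 CPM), miR-27b-3p (990.5 ± 108 CPM), miR-23a-3p (745 ± 243 CPM) and miR-24-2-5p (317 ± 28.9 CPM; SD, n = 6 each). The first 2 of these BDL names, and the next 2, lay within 1 SD of each other. miR-23b-3p and miR-27a-5p were far lower, with 55.8 ± 42.0 and 50.3 ± 19.9 CPM in BDL and 58.4 ± 18.5 and 44.0 ± 22.4 CPM in sham, and the 2 overlapped.

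**Figure D1:**
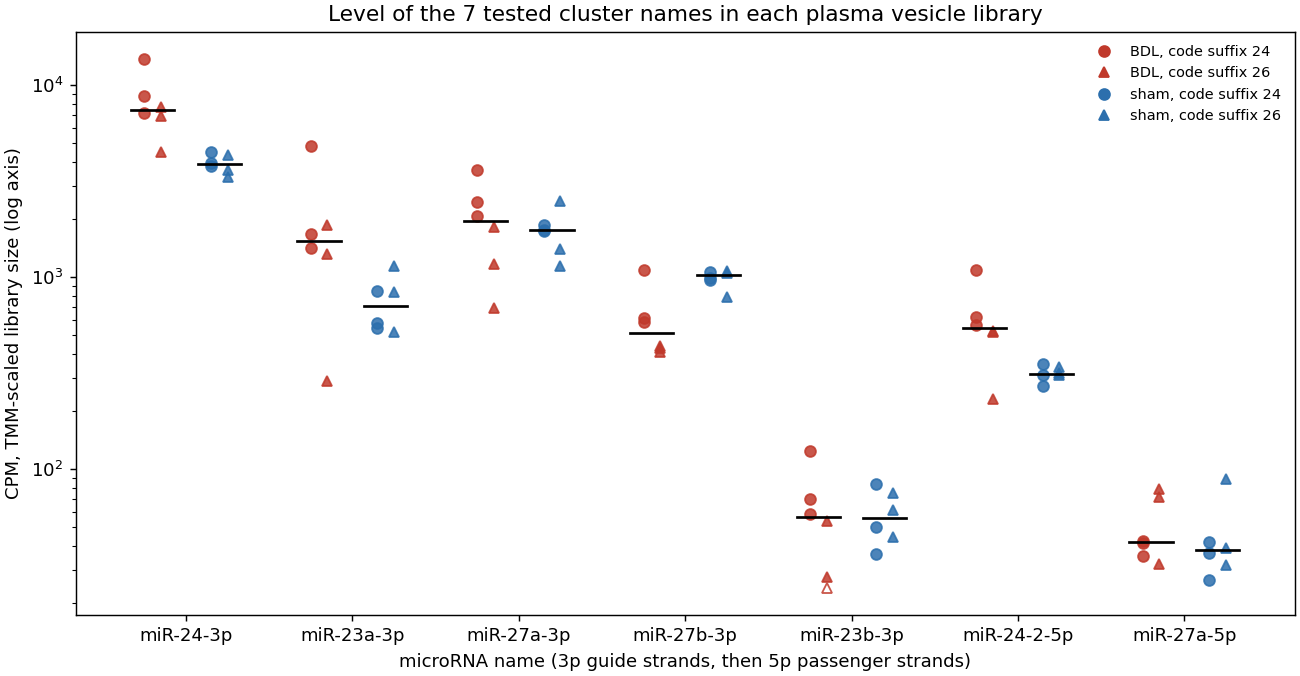
CPM of the 7 tested names in each library on a log axis, with BDL in red to the left of sham in blue, circles for code suffix 24, triangles for suffix 26 and bars at the group medians. The open triangle is a count of 0 in BDL 4, drawn at the 23.98 CPM that such a count allows. miR-24-3p sits between 4484 and 13738.5 CPM in BDL and between 3319 and 4486 CPM in sham, and miR-27b-3p goes the other way in 5 of the 6 BDL libraries.

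The comparison of BDL with sham asks whether the clusters differ in vesicles after bile flow is stopped. Of the 10 names, 7 passed the filter on low counts and were tested, and 3 were higher in BDL and 1 lower (edgeR quasi-likelihood fit over 341 names, with p adjusted by Benjamini-Hochberg and called under 0.05). The same test called 24.6% of all tested names higher and 18.2% lower, or 42.8% in all, so a called member is no rarity here and the count itself carries no weight. miR-24-3p, its passenger miR-24-2-5p and miR-23a-3p rose, miR-27b-3p fell, and miR-27a-3p, miR-23b-3p and miR-27a-5p did not pass. No member had groups that did not overlap at all, against 11.7% of all tested names with every BDL library above every sham library and 9.38% with every one below.

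miR-24-3p, a guide known to repress cell cycle genes, rose about 2-fold. Its lowest, median and highest levels were 4484, 7441 and 13738.5 CPM in BDL, against 3319, 3867 and 4486 CPM in sham. Only BDL 4, the lowest BDL library, fell within the sham range, just under sham 3. The log2 fold change was 1.06 ± 0.25 (SE; 2.08-fold; adjusted p = 0.00290, edgeR). Leaving out any 1 of the 12 libraries kept the call, with log2 fold changes from 0.78 to 1.12 and adjusted p from 9.82e-04 to 0.0204. The call ended with no count filter (adjusted p = 0.0617) and in the suffix 26 libraries alone (0.71, adjusted p = 0.103), and over all 24 alternatives adjusted p ran from 9.82e-04 to 0.103.

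miR-24-2-5p, the passenger strand of the chromosome 8 copy of miR-24, rose with its guide in all BDL libraries but BDL 4. It had 232, 544 and 1090 CPM (lowest, median and highest) in BDL, against 270, 313 and 354 CPM in sham. All BDL libraries but BDL 4 were above the sham range, and BDL 4 was below it. The log2 fold change was 0.91 ± 0.29 (adjusted p = 0.0194, edgeR), a call that rests on the full set. It ended when BDL 1, 2 or 3 or sham 1, 3, 4, 5 or 6 was left out, with log2 fold changes from 0.58 to 0.88 there, and adjusted p from 0.00319 to 0.0844 over the 12 fits. Without BDL 1 the log2 fold change was 0.58, and without BDL 4 it was 1.01 (adjusted p = 0.00319). It also ended with no count filter (adjusted p = 0.135).

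miR-23a-3p had 288, 1540 and 4817 CPM (lowest, median and highest) in BDL, against 517, 710 and 1141 CPM in sham. BDL 1 was the highest library by far and BDL 4 the lowest of all 12, and the other 4 BDL libraries, at 1321 to 1860 CPM, were above every sham library. The log2 fold change was 1.35 ± 0.45 (adjusted p = 0.0215, edgeR). Without BDL 1 it was 0.78 (adjusted p = 0.111), and without sham 3, 5 or 6 it was 1.14, 1.22 and 1.17 (adjusted p = 0.0718, 0.0723 and 0.0719). Without BDL 4 it was 1.52 (adjusted p = 0.00266), so the range over the 12 fits was 0.78 to 1.52 with adjusted p from 0.00266 to 0.111.

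miR-27b-3p, a guide known in liver for targeting genes of lipid metabolism, fell. It had 408, 511 and 1095 CPM (lowest, median and highest) in BDL, against 789, 1023 and 1081 CPM in sham. BDL 1 was above every sham library, while the other 5 BDL libraries were below all of them, at 617 CPM or less. The log2 fold change was -0.73 ± 0.26 (adjusted p = 0.0341, edgeR), and it was -1.06 without BDL 1 (adjusted p = 0.00119). The call ended without BDL 2, 3 or 6 or sham 1 or 2, where log2 fold changes were -0.72, -0.82, -0.64, -0.75 and -0.72 (adjusted p from 0.00119 to 0.0928 over the 12 fits). It also ended with total counts only (-0.56, adjusted p = 0.241), with no count filter (-0.75, adjusted p = 0.207) and with counts summed over libraries that share a first code digit (-0.47, adjusted p = 0.160).

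The other tested names gave no call under any of 24 alternatives. miR-27a-3p, a guide that restrains fat cell formation, had 687, 1962 and 3603 CPM (lowest, median and highest) in BDL and 1147, 1751 and 2493 CPM in sham. Its log2 fold change was 0.19 ± 0.33, with a 95% interval from -0.51 to 0.88 (adjusted p = 0.682, edgeR). It is an interval that holds changes in either direction. miR-23b-3p had 0, 56.3 and 124.2 CPM in BDL and 36.2, 55.4 and 84.2 CPM in sham, and its log2 fold change was 0.04 ± 0.45 (95% interval -0.92 to 0.99). The 0 is BDL 4, where up to 23.98 CPM would go unseen. miR-27a-5p, the miR-27a passenger, had 32.0, 42.0 and 79.1 CPM in BDL and 26.5, 37.9 and 88.4 CPM in sham, with a log2 fold change of 0.22 ± 0.35 (95% interval -0.52 to 0.96). The groups overlapped throughout for all 3.

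The other 3 passenger strands stayed below the filter and were not tested. miR-23a-5p had 158 counts over 11 libraries, with 0, 9.45 and 25.2 CPM (lowest, median and highest) in BDL and 1.73, 5.43 and 6.09 CPM in sham. Its BDL levels were above all sham levels except in BDL 4, which had a count of 0. Some alternatives let it be tested, and they were divided. It passed with a filter of 10 counts in 6 libraries (log2 fold change 1.35, adjusted p = 0.0335), with sums over the first code digit and without BDL 4 or 6 or sham 2, 5 or 6. It did not pass with no count filter (1.27, adjusted p = 0.161), within suffix 24 (1.42, adjusted p = 0.0848) or without BDL 2 or sham 1, 3 or 4 (adjusted p from 0.0624 to 0.0874; all edgeR). Its counts were 42, 14, 26, 0, 25 and 5 in BDL 1 to 6 and 5, 13, 8, 4, 12 and 4 in sham 1 to 6. Except with no count filter, miR-23a-5p thus entered these fits mainly through BDL libraries where it is high. Its calls as higher there carry no weight. miR-24-1-5p had 101 counts in all, at 0 to 8.32 CPM in BDL and 2.08 to 16.8 CPM in sham. miR-27b-5p had 32 counts in all, 12 of them in BDL 1 and none in the other BDL libraries, against 1 to 9 in each sham library.

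**Figure D2:**
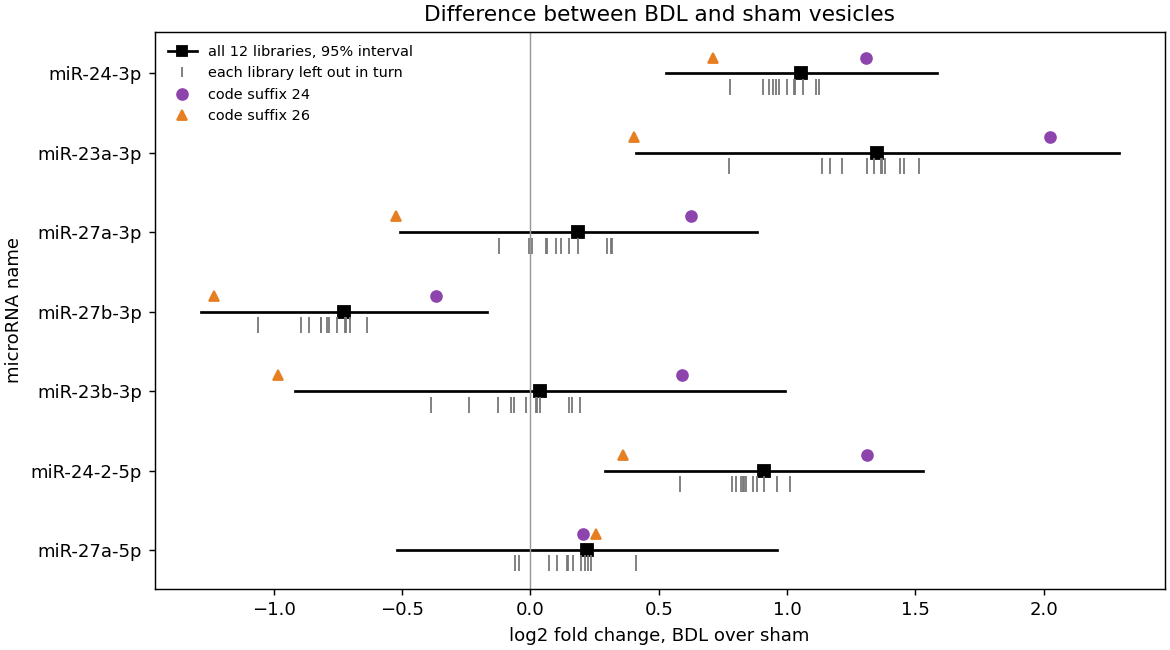
Log2 fold change of BDL over sham for the 7 tested names. Squares and lines are the fit to all 12 libraries with its 95% interval, grey ticks are the 12 fits that each leave out 1 library, and circles and triangles are the fits within code suffix 24 and 26. Of the 7 names, all but miR-27a-5p have a lower value in suffix 26 than in suffix 24, and the intervals of miR-24-3p, miR-23a-3p, miR-24-2-5p and miR-27b-3p stay clear of 0.

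The a and b copies of the same guide did not keep their proportion. Ratios of counts within a library do not depend on how libraries are scaled, and 10 pairs of tested names were compared over all ways to part the 12 libraries into 6 and 6 (two-sided exact permutation tests, 0.5 added to counts, adjusted over the 10). For miR-23a-3p over miR-23b-3p the lowest, median and highest ratios were 20.0, 36.3 and 73.0 in BDL, against 10.0, 12.6 and 15.8 in sham. Every BDL library was above every sham library. The mean log2 ratio was 5.21 ± 0.64 in BDL against 3.66 ± 0.27 in sham (SD over 6 libraries each), a difference of 1.54 (exact permutation p = 0.00216, the smallest possible, adjusted p = 0.00722). The highest BDL ratio rests on the count of 0 in BDL 4. With the 3 counts that such a 0 allows, that ratio would lie within the sham range, so the separation is not settled for BDL 4. Without that library the difference was 1.35 (exact permutation, adjusted p = 0.00541).

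For miR-27a-3p over miR-27b-3p the ratios were 1.68, 3.34 and 4.26 (lowest, median and highest) in BDL, against 1.33, 1.73 and 2.31 in sham. BDL 4 lay inside the sham range and the other 5 BDL libraries above it. The log2 ratio averaged 1.63 ± 0.50 in BDL against 0.78 ± 0.28 in sham (SD over 6 libraries each), a difference of 0.86 (exact permutation p = 0.00866, adjusted p = 0.0173). Thus miR-27a made up 62.8% to 81.0% of miR-27 guide counts in BDL and 57.0% to 69.8% in sham. Since the miR-27 guides differ at base 19 only, how reads that lack that base were counted could move this ratio, and the sources used here do not say how such reads were counted. The equal counts of miR-486a-5p and miR-486b-5p show 2 names given the same count, while no member had the same counts as another mouse name in every library. The same holds for the miR-23 pair, whose sequences could not be compared here.

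Of the ratios compared, miR-24-3p to miR-27b-3p had the largest log2 difference. The former was called higher and the latter lower in the same libraries, so their ratio is not separate evidence. How often other pairs of a higher and a lower name come apart was not computed. miR-24-3p had 10.9, 13.4 and 17.9 counts (lowest, median and highest library) for each miR-27b-3p count in BDL, against 3.44, 3.99 and 4.23 in sham. The groups were far apart, with BDL 1 at 12.5 and BDL 4, the lowest BDL library, at 10.9. The log2 ratio was 3.78 ± 0.26 in BDL against 1.98 ± 0.11 in sham (SD over 6 libraries each), a difference of 1.80 (exact permutation p = 0.00216, adjusted p = 0.00722). Leaving out each library gave 1.72 to 1.86. With counts summed over libraries that share a first code digit, an alternative chosen after seeing the data, it was 1.75, with the 3 BDL sums above the 3 sham sums (exact permutation p = 0.1, the smallest possible). Against miR-27a-3p the miR-24-3p ratio was 2.94, 4.19 and 6.49 in BDL and 1.73, 2.36 and 2.89 in sham, a difference of 0.94 on the log2 scale (exact permutation p = 0.00216, adjusted p = 0.00722), with every BDL library above every sham library.

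**Figure D3:**
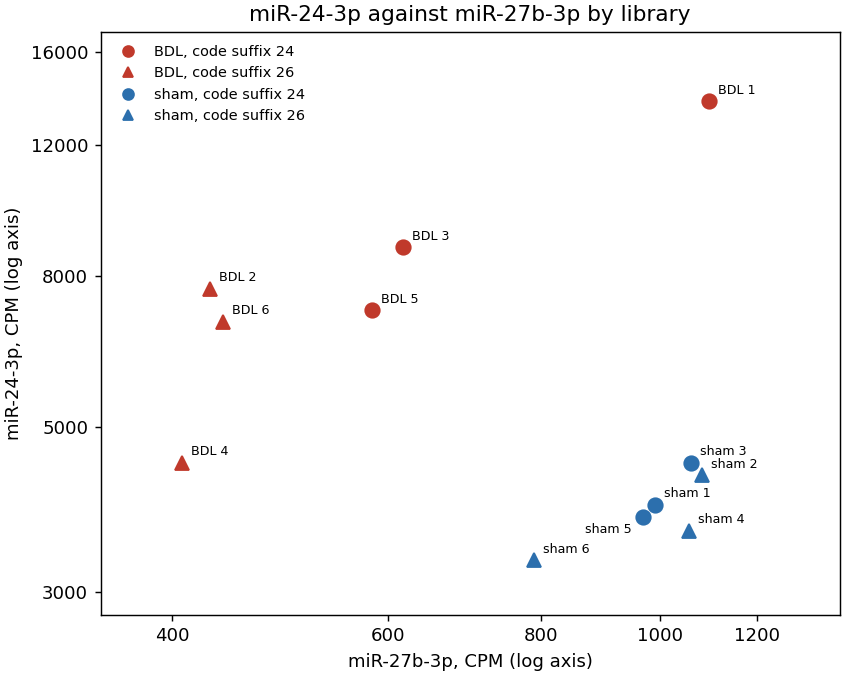
CPM of miR-24-3p against CPM of miR-27b-3p in each library, both on log axes, with BDL in red and sham in blue, circles for code suffix 24 and triangles for suffix 26. The BDL libraries lie along a band with 10.9 to 17.9 miR-24-3p counts per miR-27b-3p count and the sham libraries along a band with 3.44 to 4.23, including BDL 1 at the top right and BDL 4 at the lower left.

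Of the ratios between guides of different families, some differed and others did not pass the test. miR-23a-3p over miR-27a-3p, which lie next to each other on chromosome 8, had ratios of 0.422, 0.907 and 1.34 in BDL and 0.312, 0.394 and 0.814 in sham, a log2 difference of 0.95 (exact permutation p = 0.0281, adjusted p = 0.0469). This call ended in 9 of the 12 fits that leave out 1 library (adjusted p from 0.0216 to 0.0830; without BDL 1, 2, 3 or 6 or sham 1, 2, 3, 5 or 6), with log2 differences from 0.81 to 0.97 in those 9. miR-23b-3p over miR-27b-3p differed by 0.26 (exact permutation p = 0.745, adjusted p = 0.827), with BDL 4 far below the rest because of its 0; without BDL 4 the difference was 0.83 (exact permutation, adjusted p = 0.0216, in a range of 0.0216 to 0.983 over the 12 fits). miR-24-3p over miR-23a-3p differed by -0.01 (exact permutation p = 0.978), with log2 ratios of 2.44 ± 0.81 in BDL against 2.45 ± 0.47 in sham (SD over 6 libraries each). miR-24-3p over miR-23b-3p differed by 1.53 (exact permutation p = 0.00649, adjusted p = 0.0162), or 1.04 without BDL 4.

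The passenger and guide of miR-24 moved largely together, least so in BDL 4. Among the 21 pairs of tested members, miR-24-3p and miR-24-2-5p had the steadiest ratio, with an SD of the log2 ratio of 0.21 over the 12 libraries. The passenger had 0.0525 to 0.0794 counts per guide count in BDL and 0.0686 to 0.0939 in sham, a log2 difference of -0.21 (exact permutation p = 0.0563, adjusted p = 0.0804). It passed when sham 1 was left out (-0.26, exact permutation, adjusted p = 0.0325, in a range of 0.0325 to 0.216). Of the miR-24 passenger counts, miR-24-2-5p from chromosome 8 made up 96.7% to 100% in BDL and 94.9% to 99.2% in sham. miR-27a-5p over miR-27a-3p had a log2 difference of 0.21 (exact permutation p = 0.677, adjusted p = 0.827).

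**Figure D4:**
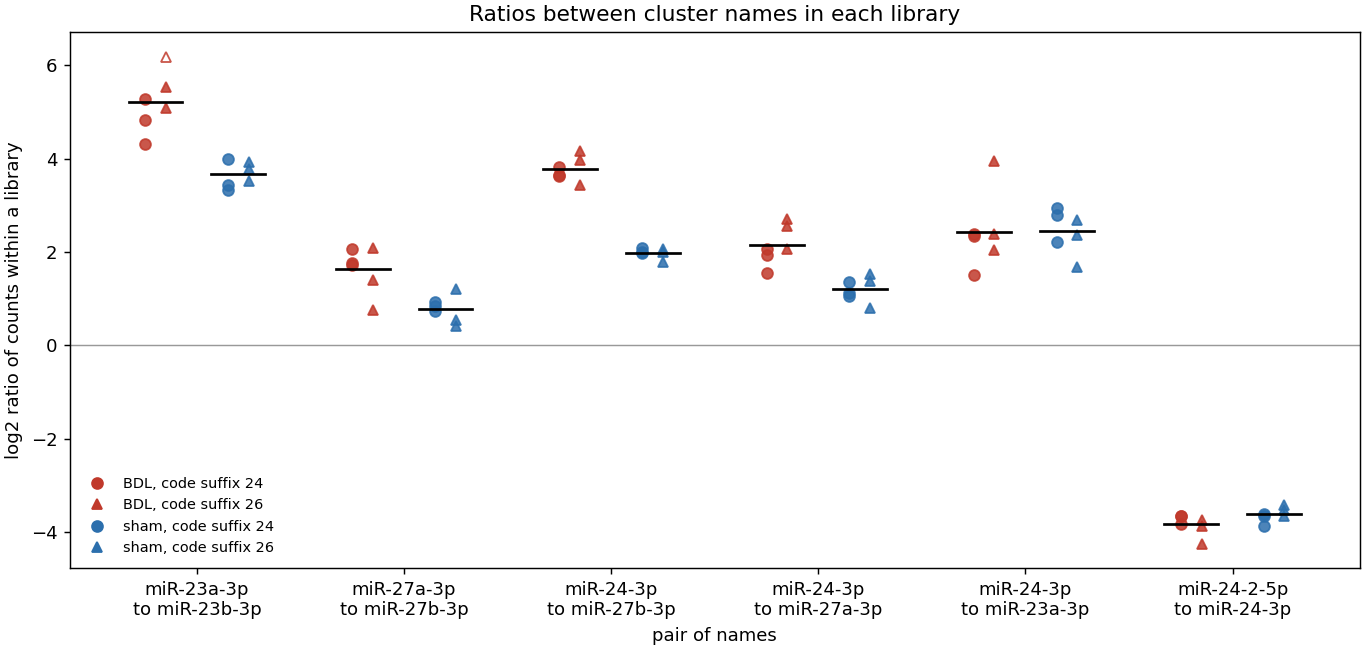
Log2 ratio of counts between 2 names in each library, for 6 of the 10 pairs, with BDL in red left of sham in blue, circles for code suffix 24, triangles for suffix 26 and bars at the group means. The open triangle rests on a count of 0 in BDL 4 and could lie within the sham range. miR-24-3p to miR-27b-3p has means of 3.78 in BDL and 1.98 in sham, and the groups are also apart for miR-23a-3p to miR-23b-3p and miR-24-3p to miR-27a-3p.

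Levels and ratios were also compared within each code suffix. Within suffix 24 (3 BDL and 3 sham libraries) miR-23a-3p, miR-24-3p and miR-24-2-5p were higher, at 2.02, 1.31 and 1.31 on the log2 scale (adjusted p = 0.00498, 0.00728 and 0.00728, edgeR), and no member was lower, where 18.4% of 403 names were higher and 12.9% lower. Within suffix 26, where the BDL libraries were shallow, miR-27b-3p was lower (-1.23, adjusted p = 0.0111, edgeR) and no member was higher, where 20.4% of 265 names were higher and 18.1% lower. miR-23a-3p had 0.40 there (adjusted p = 0.558), miR-24-2-5p 0.36 (adjusted p = 0.476) and miR-27a-3p -0.52 (adjusted p = 0.334), against 0.62 for miR-27a-3p in suffix 24 (adjusted p = 0.0891; all edgeR). miR-27b-3p had -0.37 in suffix 24 (adjusted p = 0.351, edgeR). The difference between suffixes passed for 0 of the 7 members (lowest adjusted p = 0.266, for miR-23a-3p at -1.51 ± 0.74; edgeR), against 2.35% of all tested names. No member had an unadjusted p under 0.05 for that difference.

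The ratio of miR-24-3p to miR-27b-3p differed by 1.69 in suffix 24 and 1.91 in suffix 26, with the groups apart in each (exact permutation p = 0.1 each, the smallest that 3 against 3 can give). The ratio of miR-23a-3p to miR-23b-3p differed by 1.22 and 1.86, and that of miR-27a-3p to miR-27b-3p by 1.02 and 0.70. In suffix 26 the last of these overlapped between groups. The miR-23 difference of 1.86 there rests in part on the count of 0 in BDL 4. The part of depth in the levels was not tested.

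The names closest to each guide were sought by the SD of the log2 ratio over the 12 libraries, among 334 tested names outside the clusters. For miR-24-3p these were miR-378a-3p (SD 0.22) and miR-22-5p (SD 0.24), where the median name had 1.08. Both were higher in BDL, by 0.83 ± 0.25 and 1.18 ± 0.27 on the log2 scale (adjusted p = 0.0130 and 0.00225, edgeR). For miR-27b-3p they were miR-221-3p (SD 0.24) and miR-30a-3p (SD 0.28), where the median name had 0.99. miR-221-3p had -0.76 ± 0.32 (adjusted p = 0.0679) and miR-30a-3p fell by 1.04 on the log2 scale (adjusted p = 0.00473, edgeR). For miR-27a-3p they were miR-29a-3p (SD 0.23) and miR-425-5p (SD 0.32). miR-29a-3p, which represses collagen genes, differed by 0.46 ± 0.38 on the log2 scale (adjusted p = 0.361, edgeR) and miR-425-5p 0.00 ± 0.26 (adjusted p = 1.00, edgeR). For miR-23a-3p they were miR-339-5p (SD 0.46) and miR-130a-3p (SD 0.49), and for miR-23b-3p miR-652-3p (SD 0.40) and miR-210-3p (SD 0.46). In BDL 4, miR-23b-3p, miR-652-3p, miR-210-3p and miR-130a-3p all had a count of 0. Their ratios in that library are set in part or wholly by the 0.5 added to counts, and these SDs rest in part on that. Both names of such a ratio share the depth and group of each library, so a steady ratio describes these libraries only. Partners were picked over both groups together, so their differences between BDL and sham follow in part from that choice.

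Other microRNAs of blood vessel growth were lower more often than higher. Of 22 listed names 20 were tested, of which 3 passed as higher and 8 as lower, while 9 did not pass, and their median log2 fold change was -0.69 against 0.03 over all names tested. Of all names tested 24.6% were higher and 18.2% lower. The 3 largest changes were miR-16-5p (-2.06 ± 0.46, adjusted p = 0.00189), miR-20a-5p of the miR-17/92 cluster (-1.81 ± 0.48, adjusted p = 0.00601) and miR-126a-3p (-1.79 ± 0.40, adjusted p = 0.00189; all edgeR). The list is not separate from the cell type lists that follow. It shares miR-16-5p with the red cell list and holds both endothelial and platelet names. Other listed names also come from the miR-17/92 cluster. miR-126a-3p is the most abundant microRNA of endothelium and is also found in platelets, and it had 1433 ± 858 CPM in BDL against 4982 ± 2187 CPM in sham (SD over 6 libraries each). In bulk vesicle RNA, fewer vesicles from a cell type and less of its RNA per vesicle cannot be told apart.

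Markers of several cell types differed between the same libraries, and their counts stand beside 24.6% of all tested names higher and 18.2% lower. The 4 hepatocyte names took 7.17% to 33.9% of BDL counts and 0.432% to 2.51% of sham counts, led by miR-122-5p (log2 fold change 4.26 ± 0.55, adjusted p = 3.81e-05, edgeR), with 2 higher of 3 tested. The 6 red cell names took 17.1% to 36.1% in BDL and 37.3% to 41.2% in sham, with 3 lower and 0 higher of 5 tested, and miR-451a fell by 2.63 on the log2 scale (adjusted p = 3.51e-05, edgeR). Nearly all of that share was miR-486a-5p, at 16.7% to 35.8% in BDL and 36.2% to 40.1% in sham, and miR-486b-5p, which is not on the list, had identical counts in all 12 libraries. The 2 endothelial and platelet names took 0.0619% to 0.359% in BDL and 0.292% to 0.884% in sham, and both were lower. The 5 leukocyte names took 0.0502% to 0.303% in BDL and 0.279% to 0.661% in sham, with 3 lower and 0 higher. Of 4 striated muscle names 3 were lower, with 0.0661% to 0.167% in BDL and 0.114% to 0.225% in sham, and of 4 epithelial names 2 were lower, with 0.00744% to 0.0336% in BDL and 0.0229% to 0.0472% in sham. No marker was at 0 in every library. The part of these cell types in the cluster results was not tested.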

How the data were processed

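Small RNA libraries were made from plasma vesicle RNA, per the labels' protocols, with PCR and no molecular identifiers described. The authors deposited 1 table of raw counts, whole numbers for each microRNA name. Cutadapt and STAR were used, per the submitters' processing notes. Their versions, the build, the annotation and the treatment of reads matching several names were not given in the sources used here. Analysis used the 1915 mouse names and left out 67 of other species. Every column matched 1 sample title.

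For the comparison of groups, edgeR 4.0.16 was run under R 4.3.3 (quasi-likelihood F test, TMM scaling, filter on low counts by group, Benjamini-Hochberg over 341 names; common biological coefficient of variation 45.5%), after a check on simulated data. The SE of a log2 fold change is its size over the root of F. Ratios were tested in Python 3.11.15. Of 14 planned ratios 4 involved an untested name and were left out. Alternatives used DESeq2 1.42.0 and limma 3.58.1 (voom), other scalings and filters, each library left out, the code suffix, sums over the first code digit and the replicate number.

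Named microRNAs were the members, the 2 steadiest partners of each guide, miR-122-5p, miR-451a, miR-126a-3p, the 3 largest changes of the blood vessel list and names sharing a guide's seed. The members, lists and ratios were chosen with earlier results of these data known.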

Additional observations from a re-analysis of the deposited data

Results flagged for a closer look

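Of 38 groups of 6 values (levels and ratios of the tested members, totals and the member share), 9 had 1 value set apart at the top or bottom. Among separate groups about 1 in 20 would by chance, but these groups reuse the same few names and libraries. The 9 are thus not separate, and their number was not tested against that share. The log2 CPM of miR-23b-3p in BDL 4 was 0.21, from a count of 0 in the library with the fewest counts. The same library had log2 ratios of -6.69 for miR-23b-3p to miR-27b-3p and 10.1 for miR-24-3p to miR-23b-3p, both resting on that 0. It also had 3.94 for miR-24-3p to miR-23a-3p and -4.25 for miR-24-2-5p to miR-24-3p. In BDL 1, the deepest library, the 10 names took 3.36% of counts, the highest share of the group.

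In sham 6, log2 CPM of miR-27b-3p was 9.63, the lowest of its group, and the log2 ratio of miR-27a-5p to miR-27a-3p was -3.69, the highest. In sham 4 the log2 ratio of miR-24-3p to miR-27b-3p was 1.78, the lowest sham value and still below every BDL value.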

How the results depend on the processing

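The member count (4 past the threshold) was 1 with no count filter, 1 within code suffix 26 and 2 to 5 over the 12 fits that leave out 1 library. The cause was not tested. Counts without BDL 4 or 6 or sham 2, 5 or 6 include miR-23a-5p, whose calls as higher carry no weight. The count over all names (146) was 102 to 176 over all 24 alternatives. Whether sample numbers pair the libraries could not be settled with 6 libraries per group. Same-numbered libraries had correlations of deviations from -0.09 to 0.31, and 2 of 6 matched their own number best. With the replicate block, 2 members passed, miR-24-3p (0.98) and miR-27b-3p (-0.82), while miR-23a-3p had 1.12 and miR-24-2-5p 0.78 (adjusted p = 0.0646 and 0.0645, edgeR). With the block as exact sign flips, the log2 ratios of miR-23a-3p to miR-23b-3p (1.54) and miR-27a-3p to miR-27b-3p (0.86) both had an adjusted p of 0.0625, as did miR-24-3p to miR-27b-3p (1.80), to miR-27a-3p (0.94) and to miR-23b-3p (1.53), while miR-23a-3p to miR-27a-3p (0.95) had 0.156. Here no unadjusted p of 64 flips can go below 0.0312. With counts summed over the first code digit, chosen after seeing the data, 7 of the 10 ratios had the 3 BDL sums above the 3 sham sums, miR-23b-3p to miR-27b-3p (0.87) among them (exact permutation p = 0.1 each, the smallest possible). The ratios reuse the same few names, and the share over other pairs of tested names was not computed, so this count carries no weight. In edgeR with the same sums, miR-24-3p (1.28), miR-24-2-5p (1.20) and miR-23a-3p (1.76) stayed higher (adjusted p = 0.00267, 0.00375 and 0.00618). There miR-27b-3p did not pass (-0.47, adjusted p = 0.160, edgeR). With 2 added to counts the log2 ratio of miR-23a-3p to miR-23b-3p differed by 1.21 (exact permutation, adjusted p = 0.00722). The median log2 fold change of all names was 0.03 with TMM, -0.11 with DESeq2 size factors and 0.12 with total counts, and no called member changed sign. BDL 4 limits what can be seen of names under 23.98 CPM. Scaling by total counts without miR-122-5p and miR-486, an alternative chosen after seeing the data, left all 4 called members past the threshold in the same direction.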

Other observations

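The passenger strand of miR-23b, miR-23b-5p, is in the table but not among the 10 names, and it was singled out after its values were seen. It had too few counts to be tested. Its counts were 17, 4, 23, 0, 22 and 5 in BDL 1 to 6, which is 3.54, 7.19, 8.61, 0, 14.0 and 9.18 CPM. In sham 1 to 6 they were 5, 8, 3, 2, 3 and 1, or 1.73, 3.25, 2.09, 1.92, 1.51 and 1.52 CPM. All BDL libraries but BDL 4, whose count of 0 allows up to 23.98 CPM, were above every sham library, while its guide miR-23b-3p had a log2 fold change of 0.04 ± 0.45.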
